A study of Mus musculus with 39 samples.

Results

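The 10 genes Siglecf, Marco, Itgax, Pparg, Bhlhe41, Ear1, Ear2, Car4, Fabp1 and Krt79, used as markers of mature alveolar macrophages, were followed across 39 RNA-seq libraries of sorted mouse lung cells. They were chosen by name, and all 10 of 10 matched a single row each among the 43430 Ensembl gene rows of the counts table. Alveolar macrophages are the resident phagocytes of the air spaces, where they clear surfactant, debris and microbes. Their identity depends on GM-CSF and TGF-β signalling, which act through the nuclear receptor PPARγ, a regulator of lipid handling. Monocytes recruited to an injured lung can become alveolar macrophages, and early in that process they carry little Siglec F, a sialic acid-binding receptor that is abundant on the long-resident cells.

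The libraries came from C57BL/6J mice and fell into 8 groups, formed by cell type, age and treatment. The 19 macrophage libraries held alveolar macrophages with low surface Siglec F, collected 21 days after bleomycin was given, an antitumour antibiotic that damages lung epithelium and leaves fibrosis. The mice had received ISRIB, a small molecule that activates eIF2B and thereby counters the integrated stress response, or vehicle, by daily intraperitoneal injection from day 7; the labels call the vehicle groups saline. There were 5 young saline, 4 young ISRIB, 5 old saline and 5 old ISRIB macrophage libraries. The 20 monocyte libraries, 5 for each age and treatment, held lung monocytes of naive mice of the same strain that had ISRIB or saline, with no schedule of their own in the labels. The sample labels give 8 to 12 weeks for young and over 18 months for old mice, whereas the series text gives 3 to 5 and 18 to 24 months. Siglec F protein was the sorting gate of the macrophages, so the level of Siglecf transcript was limited by the sort. Nothing in the labels says that the libraries came from separate mice, and p-values measure the spread between these libraries, which may be technical. In sorted bulk samples, a smaller number of cells with a transcript and less transcript per cell cannot be told apart.

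Library totals ran from 4595331 to 16056708 counts assigned to genes, with a median of 8628240. The labels were checked against defining transcripts. Mertk, a phagocytic receptor of macrophages, was at 326 to 600.0 CPM (counts scaled to the total of assigned counts in the library) in the macrophage libraries and at 0.485 to 7.47 CPM in the monocytes, and Ly6c2, a marker of classical monocytes, was at 0.193 to 7.01 CPM in the macrophages and at 278 to 698 CPM in the monocytes. Eosinophils, which share Siglecf, Ear1 and Ear2 with alveolar macrophages, were checked through 8 markers. Their summed level was 0 to 1.81 CPM in young saline, 0.155 to 1.46 in young ISRIB, 0 to 1.88 in old saline and 1.16 to 5.57 CPM in old ISRIB macrophages. Among the macrophages it was highest in the group where Siglecf, Ear1 and Ear2 were highest. In the monocytes the same list summed to 0 to 4.64 CPM, where Siglecf, Ear1 and Ear2 reached at most 1.57, 1.59 and 107 CPM. The part of eosinophils in the values of these 3 genes was not tested. The granule genes Epx, Prg2 and Prg3 were at 0 in 18 of 19, 17 of 19 and 19 of 19 macrophage libraries. Prg2 was at 0 in every young macrophage library and above 0 only in old ones, in both the saline and the ISRIB group. Epx went the other way and was above 0 only in the young saline group. Both genes stayed low, reaching at most 0.4999 CPM for Prg2 and 0.0623 CPM for Epx in the macrophages. Old saline macrophage libraries 3 and 5 were higher than the other 3 libraries of their group for Siglecf, Marco, Ear1, Ear2, Fabp1 and Krt79, and results are given with and without them where they bear on a call.

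Ear1 and Ear2, secreted ribonucleases of the eosinophil-associated family, are near copies on chromosome 14, and their upstream sequences are shown because the 2 genes differed in monocytes. These are the 250 bases before each RefSeq start site on GRCm38.p6, at chr14:43819640-43819889 on the minus strand for Ear1 and chr14:44102404-44102653 on the plus strand for Ear2. Capitals mark bases that differ or have no partner in the alignment of the 2 sequences.
Ear1: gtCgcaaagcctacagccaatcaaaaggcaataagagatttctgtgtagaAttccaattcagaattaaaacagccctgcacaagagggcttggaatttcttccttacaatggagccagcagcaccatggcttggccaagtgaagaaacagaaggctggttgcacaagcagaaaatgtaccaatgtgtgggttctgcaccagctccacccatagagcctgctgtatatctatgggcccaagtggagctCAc
Ear2: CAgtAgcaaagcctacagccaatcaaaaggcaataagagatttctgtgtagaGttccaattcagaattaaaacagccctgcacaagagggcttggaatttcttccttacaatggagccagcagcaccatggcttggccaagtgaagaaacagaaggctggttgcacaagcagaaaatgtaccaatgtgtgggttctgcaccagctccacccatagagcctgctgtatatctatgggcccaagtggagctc
Of 252 alignment columns, 246 were identical, 2 were mismatches and 4 were gaps, an identity of 97.62%. The longest annotated transcripts of the 2 genes were 95.97% identical. Of the 50-base words in the transcripts of Ear1, 57.38% also occurred in another gene, chiefly of the same family, and for Ear2 the share was 41.49%. How reads that match several genes were counted is not given in the sources used here, so the split of counts between Ear1 and Ear2 is uncertain. Of the other near copies, Ear6 averaged 1.25 to 4.94 CPM in the 4 macrophage groups and Ear10 0.0414 to 0.252 CPM.

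Promoters of the members, taken from RefSeq as 300 bases around the start site, were searched on both strands for 4 motifs. Only exact matches to the letters were counted, so sites with a mismatch were missed. PPARγ binds with RXR to a direct repeat, 2 copies of AGGTCA in the same direction with 1 base between. An exact copy of this repeat was in no member's promoter and in 0.03957% of the 32851 promoters in the reference table. The single AGGTCA unit, which each exact direct repeat also contains, was in 2 of 3 Pparg promoters and at 2 places in that of Fabp1, and in 16.26% of all promoters. GAGGAA, the core of sites for the myeloid factor PU.1, was found for Siglecf, Marco, Pparg and Fabp1, against 28.28% of all promoters. CACGTG, the E-box bound by BHLHE40 and BHLHE41, was found for Bhlhe41 alone among the members, against 7.15% of all promoters. Fabp1 is shown because it held the motif unit more than once; the 198 bases at chr6:71199629-71199826, plus strand, end before the annotated first exon and contain the unit that starts 67 bases before the RefSeq start site, on the minus strand, in capitals.
Fabp1: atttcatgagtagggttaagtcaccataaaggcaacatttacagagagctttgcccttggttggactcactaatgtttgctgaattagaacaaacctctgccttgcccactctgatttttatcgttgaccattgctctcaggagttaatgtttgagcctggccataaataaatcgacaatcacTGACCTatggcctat
After the marked unit, 1 base is followed by TGGCCT, which differs from TGACCT at 1 position. The exact search did not count this as a direct repeat. No binding was measured, and these matches are a description of the letters only.

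In macrophages from saline-treated mice, all 10 genes were higher than in monocytes at both ages, but from very different starting points. Expressed per gene length as RPKM, which divides CPM by the exon length in kilobases, the median level over the 19 macrophage libraries was 911 for Ear2, 422 for Itgax, 105 for Car4, 62.8 for Ear1, 38.9 for Pparg, 35.1 for Bhlhe41, 27.8 for Siglecf, 11.6 for Marco, 6.18 for Fabp1 and 2.81 for Krt79. Ear2 and Itgax did not overlap with each other or with any gene below them, while every other neighbouring pair in that order overlapped across libraries. Ear2 stood at percentile 99.8 and Krt79 at percentile 64.7 of the median RPKM of 22512 genes. In the 20 monocyte libraries, median RPKM was 92.3 for Ear2, 8.64 for Itgax, which encodes the integrin CD11c, and 2.65 for Pparg, and it was at most 0.213 for the other 7.

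**Figure D1:**
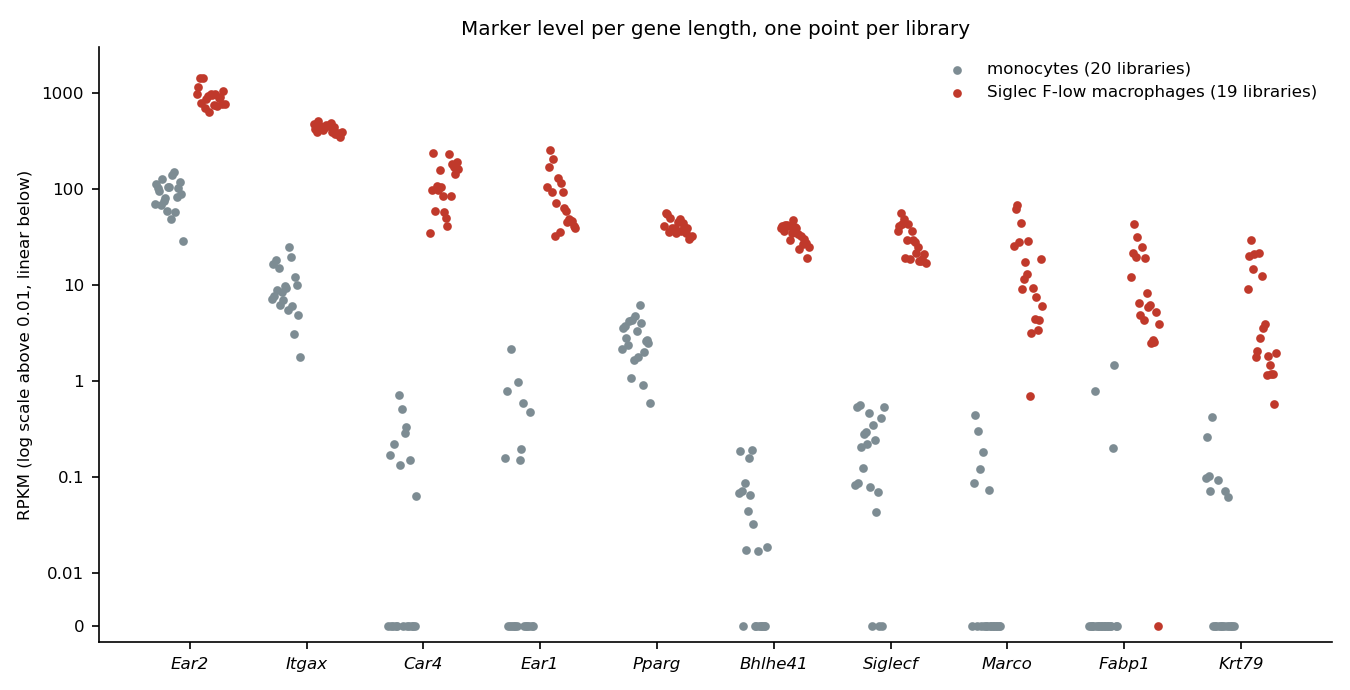
RPKM of each marker (vertical axis, logarithmic above 0.01 and linear below it) in 20 monocyte libraries (grey) and 19 Siglec F-low macrophage libraries (red), 1 point per library, with genes ordered by median in macrophages. Ear2, Itgax and Pparg are above 0 in every monocyte library, whereas Marco, Car4, Fabp1, Ear1 and Krt79 are at 0 in more than 10 of the 20.

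The edgeR quasi-likelihood test called 10 of 10 members, all higher in macrophages, in young and in old saline mice, where 60.0% and 57.0% of the 13587 genes tested were called in either direction. Cell type and bleomycin exposure go together here and cannot be told apart. Counts summed over the groups gave ratios with exact 95% intervals that cover counting error only. In young saline mice, Ear2 was 10.1-fold higher in macrophages (9.71 to 10.6), Pparg 16.1-fold (14.2 to 18.4), Itgax 57.9-fold (54.8 to 61.2) and Siglecf 85.1-fold (57.0 to 133). Marco, a scavenger receptor for particles and bacteria, had 643 counts in young saline macrophages and 0 in the 5 young saline monocyte libraries, and was at least 192-fold higher, taking 3 counts over the group as the floor. Bhlhe41, a transcriptional repressor that maintains alveolar macrophage identity, had 7741 counts in young saline macrophages against 1 in the monocytes, a ratio of 6940 with an interval of 1245 to 274143. Fabp1, a fatty acid-binding protein, showed the smallest young ratio, 8.85 (4.28 to 21.2), and was the only member whose young saline groups overlapped; in old mice, with 324 counts against 0, it was at least 107-fold higher. In young mice 9 of 10 members had no overlap between the groups, against 40.0% of genes, and in old mice 10 of 10, against 43.1%. When only the 2 young groups were fitted, Fabp1 fell below the filter on low counts and the other 9 were called.

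Ear1 and Ear2 differed most plainly in the monocytes. Ear1 was at 0 in 12 of 20 monocyte libraries and reached at most 1.59 CPM, whereas Ear2 was between 20.6 and 107 CPM in all of them. In the macrophages, Ear1 was between 23.8 and 186 CPM and Ear2 between 458 and 1031 CPM.

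Among the macrophages, 6 of 10 members were higher in old than in young mice when the 2 treatments were averaged, and none was lower. The 6 were Krt79, Marco, Fabp1, Ear1, Siglecf and Bhlhe41. This compares with 4.86% of 12171 genes called by edgeR in either direction and 3.12% called higher. The members' median log2 fold change was 0.61, against 0.0045 over all genes tested. All 6 remained called in each of 7 alternative analyses and in each of 19 fits that left out 1 library. Members differed in size of change, and Car4 was the 1 member with a fitted change below 0, which was above 0 without young ISRIB library 3. Pooled over treatments, old and young libraries overlapped for every member, where 0.214% of genes had no overlap.

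**Figure D2:**
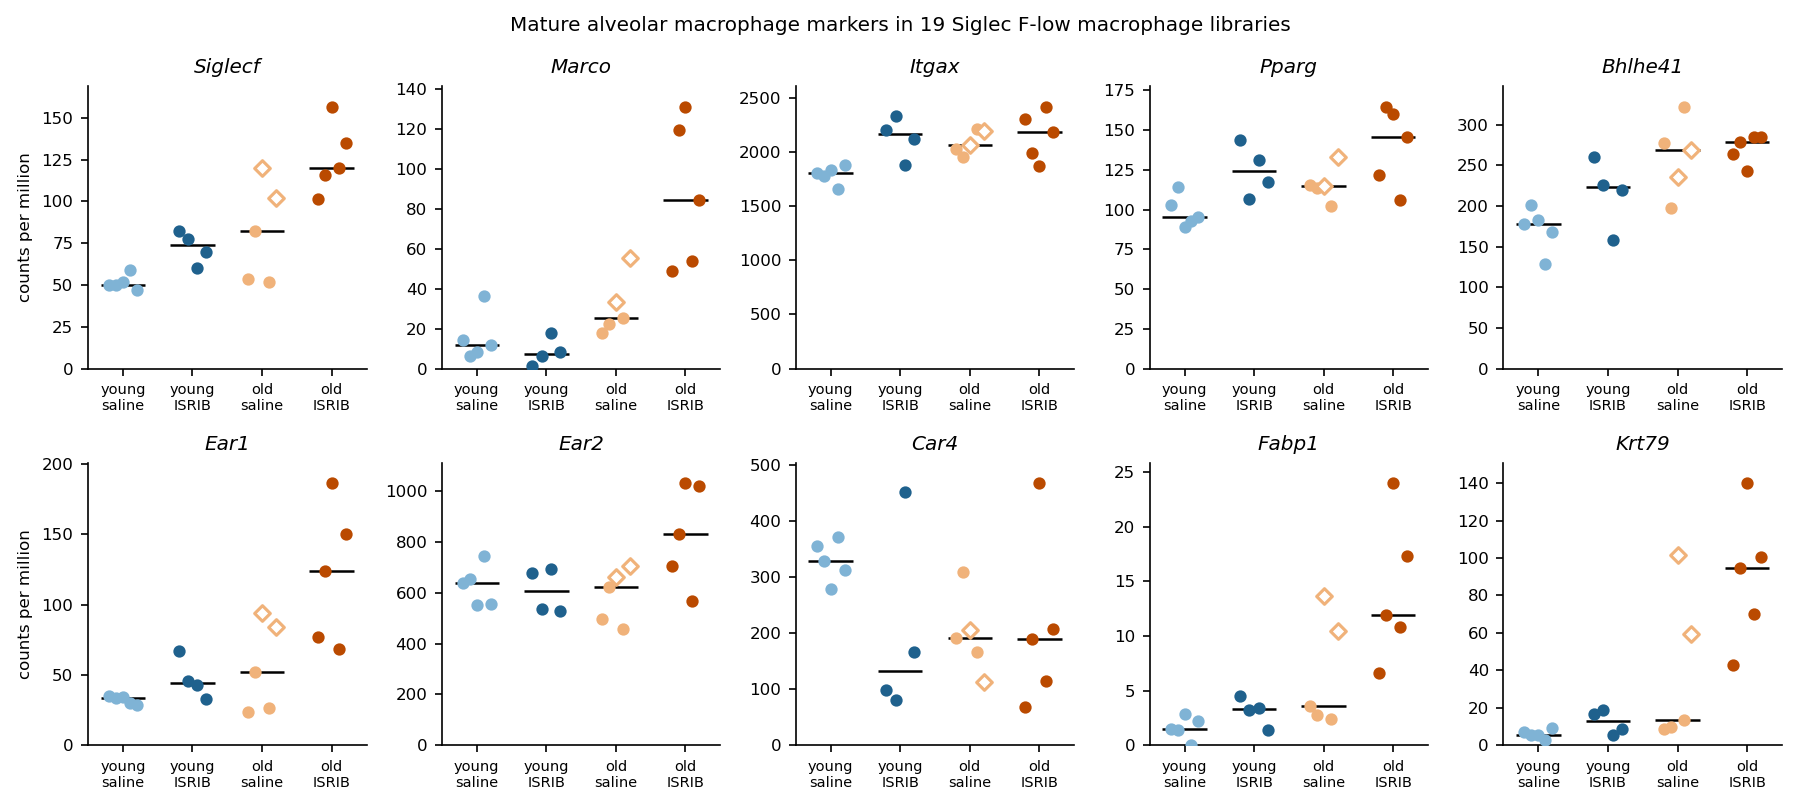
CPM of each marker (vertical axis, starting at 0) in the macrophage libraries of the 4 groups, 1 point per library, with a bar at the group median; white diamonds are old saline libraries 3 and 5. The highest library is an old ISRIB library for every member except Bhlhe41, and young saline libraries are the tightest group for Siglecf and Ear1.

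Siglecf, the surface lectin of the gate, was at 49.8, 50.035, 51.6, 58.8 and 46.8 CPM in young saline macrophages and at 82.0, 77.5, 60.3 and 69.9 CPM in young ISRIB macrophages. It was at 53.7, 82.4, 119.8, 51.5 and 102 CPM in old saline and at 101, 116, 156, 120.2 and 135 CPM in old ISRIB macrophages. The old ISRIB libraries lay above every young library, and the old saline libraries spread from the young saline level to the old ISRIB level. Averaged over treatments, Siglecf rose with age by 0.75 ± 0.12 (log2, SE; edgeR adjusted p = 4.78e-04). It rose by 0.71 ± 0.17 with saline (edgeR adjusted p = 0.0308) and by 0.78 ± 0.18 with ISRIB (edgeR adjusted p = 0.0264). The saline call was kept in 3 of 10 and the ISRIB call in 5 of 9 fits that left out 1 library. Both calls were lost in the edgeR fit of all 39 libraries (adjusted p = 0.256 and 0.232). The saline call was also lost with limma voom (adjusted p = 0.0703) and when only the 2 groups were fitted (edgeR adjusted p = 0.0555). The ISRIB call was also lost when the replicate number was added to the edgeR fit as a block (adjusted p = 0.0549). The saline difference fell to 0.34 on the log2 scale, with an edgeR adjusted p of 0.458, when old saline libraries 3 and 5 were left out.

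Marco was at 14.3, 6.46, 8.36, 36.1 and 11.6 CPM in young saline and at 1.35, 6.05, 17.7 and 8.41 CPM in young ISRIB macrophages. Old saline libraries held 17.6, 22.4, 33.1, 25.2 and 55.4 CPM, and old ISRIB libraries 48.6, 119, 130.8, 53.7 and 84.3 CPM. Young saline library 4 lay inside the old saline range, while every old ISRIB library was above every young one. Marco rose with age by 2.25 ± 0.33 (log2; edgeR adjusted p = 1.96e-04), and by 3.44 ± 0.51 among ISRIB-treated mice (edgeR adjusted p = 8.55e-04). Among saline-treated mice the difference was 1.06 ± 0.43 (edgeR adjusted p = 0.275).

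Itgax, the integrin subunit CD11c shared with dendritic cells, was high in every macrophage library, between 1658 and 2416 CPM. Its log2 difference with age was 0.14 ± 0.06 and did not pass the test (edgeR adjusted p = 0.242). Old and young saline libraries nevertheless did not overlap for Itgax or Bhlhe41 after TMM scaling, at 2.85% of genes without overlap in that comparison, and for Itgax alone in unscaled CPM.

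Of the 2 transcription factors, only Bhlhe41 passed the age test. Bhlhe41 was at 178, 201, 183, 128 and 168 CPM in young saline, 261, 226, 159 and 219.7 CPM in young ISRIB, 278, 198, 236, 322 and 269 CPM in old saline, and 265, 279, 243, 285 and 285 CPM in old ISRIB macrophages. Its old ISRIB libraries were tightly grouped, and its young saline group had the lowest median. It rose with age by 0.48 ± 0.10 on average (log2, edgeR adjusted p = 0.00418) and by 0.65 ± 0.14 with saline (edgeR adjusted p = 0.0164). The saline call was kept in 7 of 10 fits that left out 1 library, with edgeR adjusted p from 0.00479 to 0.0675. It was lost without old saline libraries 3 and 5 (0.69, edgeR adjusted p = 0.0535) and in the edgeR fit of all 39 libraries (adjusted p = 0.0991). With ISRIB the Bhlhe41 difference was 0.32 ± 0.14 (edgeR adjusted p = 0.361). For Bhlhe41, 16.35% of 50-base words occur in Gm43909, an opposite-strand gene model that was not a row of the table, and strand handling in the counting is not given in the sources used here. Pparg was at 88.9 to 114 CPM in young saline, 107 to 144 in young ISRIB, 102 to 133 in old saline and 106 to 165 in old ISRIB libraries. Its age difference was 0.21 ± 0.08 (log2; edgeR adjusted p = 0.122).

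Ear1 was at 35.1, 33.5, 33.9, 29.9 and 28.8 CPM in young saline and at 67.2, 45.9, 43.1 and 32.9 CPM in young ISRIB macrophages. It was at 23.8, 52.1, 94.3, 26.04 and 83.7 CPM in old saline and at 76.9, 124, 186, 68.4 and 150.4 CPM in old ISRIB macrophages. All old ISRIB libraries were above all young libraries, and old saline libraries 1 and 4 were below all young saline libraries. Ear1 rose with age by 1.09 ± 0.22 (log2, edgeR adjusted p = 0.00330) and, with ISRIB, by 1.34 ± 0.32 (edgeR adjusted p = 0.0351). With saline its difference was 0.83 ± 0.30 (edgeR adjusted p = 0.199). The ISRIB call was kept in 3 of 9 fits that left out 1 library, with edgeR adjusted p from 0.0188 to 0.163; it was lost without young ISRIB library 2, 3 or 4 and without old ISRIB library 2, 3 or 5. It was also lost with limma voom (adjusted p = 0.0770) and in the edgeR fit of all 39 libraries (adjusted p = 0.0794). For Ear2 the log2 difference was 0.19 ± 0.10 (edgeR adjusted p = 0.307), with 458 to 746 CPM in the saline libraries of both ages and 566 to 1031 CPM in old ISRIB libraries.

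Fabp1 was at 1.48, 1.42, 2.87, 0 and 2.18 CPM in young saline, 4.53, 3.25, 3.42 and 1.38 CPM in young ISRIB, 3.56, 2.71, 13.6, 2.38 and 10.5 CPM in old saline, and 6.62, 11.9, 24.0, 10.9 and 17.3 CPM in old ISRIB macrophages. Krt79, a type II keratin, was at 6.92, 5.56, 5.61, 2.76 and 9.22 CPM in young saline, 16.8, 18.8, 5.44 and 8.71 CPM in young ISRIB, 8.47, 9.72, 102, 13.4 and 59.5 CPM in old saline, and 42.6, 94.5, 139.8, 70.0 and 101 CPM in old ISRIB macrophages. For both genes old saline libraries 3 and 5 were within the old ISRIB range, and the other 3 old saline libraries were within the range of the young libraries. Fabp1 rose with age by 2.08 ± 0.39 (log2; edgeR adjusted p = 0.00179) and Krt79 by 2.73 ± 0.39 (edgeR adjusted p = 1.77e-04). Leaving out old saline libraries 3 and 5 lowered the values to 1.499 for Fabp1 (edgeR adjusted p = 0.0210) and 1.80 for Krt79 (edgeR adjusted p = 1.07e-04). Within the saline mice Krt79 rose by 2.66 ± 0.54 (edgeR adjusted p = 0.0144), which became 0.81 (edgeR adjusted p = 0.511) without those libraries. This saline call was kept in 7 of 10 fits that left out 1 library and was lost with limma voom (adjusted p = 0.285).

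Car4, a membrane-anchored carbonic anhydrase also found on lung capillary endothelium, varied widely in the ISRIB groups. It was at 357, 329, 279, 371 and 313 CPM in young saline and at 98.3, 79.9, 452 and 166 CPM in young ISRIB macrophages. Old saline libraries held 192, 310.0, 206, 166 and 113 CPM, and old ISRIB libraries 68.5, 190.5, 468, 115 and 208 CPM. Young saline libraries were the most even, and library 3 of each ISRIB group stood above all young saline libraries. Its age difference was -0.31 ± 0.28 (log2; edgeR adjusted p = 0.632). It was -0.70 ± 0.39 with saline (edgeR adjusted p = 0.480) and 0.08 ± 0.41 with ISRIB (edgeR adjusted p = 0.965). Leaving out young ISRIB library 3 turned the averaged value to 0.07, and over the 19 fits that left out 1 library it ran from -0.56 to 0.07. The endothelial list, 10 genes without Car4, summed to 38.2 to 56.1 CPM in young saline and 37.9 to 52.0 CPM in young ISRIB macrophages. It summed to 43.3 to 69.1 CPM in old saline and 55.6 to 89.1 CPM in old ISRIB macrophages. Its part in the Car4 values was not tested.

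Within a single treatment, edgeR called 3 members higher with age in saline mice (Krt79, Bhlhe41 and Siglecf; 0.937% of all genes were called higher) and 4 in ISRIB mice (Marco, Krt79, Siglecf and Ear1; 0.444% of all genes). Ear1, Fabp1, Krt79, Marco and Siglecf did not overlap between old and young ISRIB libraries, with or without TMM scaling, against 4.87% of genes. The saline count was 0 without young saline library 4 (0.442% of genes called in either direction), 0 without old saline library 5 (0.389%), and 0 without old saline libraries 3 and 5 (0.227%). The ISRIB count was 1 without young ISRIB library 3 (0.264% of genes in either direction) and 1 without young ISRIB library 4 (0.328%).

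Markers of other cells moved with age in the same libraries. The summed level of 8 B and plasma cell genes was 0.726 to 5.14 CPM in young saline, 2.14 to 9.42 in young ISRIB, 8.86 to 38.5 in old saline and 23.5 to 75.5 in old ISRIB macrophages, and among old saline libraries it was highest in libraries 5 and 3. The 8 T and NK cell genes summed to 0.905 to 3.13, 2.49 to 3.67, 3.57 to 12.3 and 5.68 to 21.7 CPM in the same 4 groups, and the 7 dendritic cell genes to 8.96 to 14.2, 6.88 to 15.4, 16.3 to 27.4 and 21.4 to 28.2 CPM. Every B and plasma cell gene except Mzb1 in young ISRIB libraries was above 0 somewhere in each group. The epithelial list, 11 genes, summed to 238 to 406 CPM over all macrophage libraries, with group medians of 297, 299, 249.2 and 296 CPM in the same order; its surfactant gene Sftpc was at 2.602 to 9.17 CPM. A list of 6 classical monocyte genes had median sums of 4389, 5261, 6577 and 9732 CPM and was highest in libraries 3 and 5 within old saline and in library 3 within old ISRIB macrophages. Chil3, which is also in the wider alveolar macrophage list, made up 91.4% to 98.9% of that sum. Without Chil3 the other 5 genes summed to 310 to 536, 186 to 371, 121 to 246 and 101 to 210 CPM in the 4 groups. The part of these cells in the age differences of the 6 members was not tested.

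Genes around the members' programme moved in both directions with age. In that comparison edgeR called 4.86% of the 12171 genes tested in either direction and 3.12% higher. Of 21 tested genes of a wider alveolar macrophage list, 6 rose and 1 fell; Chil3, a chitinase-like lectin, rose by 0.57 ± 0.15, Fabp4, a fatty acid-binding protein, by 0.67 ± 0.14 and Plet1 by 0.34 ± 0.09, while F7, coagulation factor VII, fell by 0.33 ± 0.10 (log2; edgeR adjusted p = 0.0249, 0.00547, 0.0217 and 0.0496). Ctsk, Krt19 and Serpinb1a also rose, and the list's median log2 change was 0.20. Mrc1, the mannose receptor, differed by 0.10 ± 0.08 (edgeR adjusted p = 0.574). None of 16 upstream receptors and transcription factors passed the edgeR test. An unadjusted p under 0.05 was found for 3 of the 16 and for 2162 of the 12171 genes. DESeq2 called 1 of the 16, where it called 6.73% of genes, and limma voom 0, where it called 4.06%. The GM-CSF receptor genes Csf2ra and Csf2rb differed by -0.07 ± 0.06 and 0.03 ± 0.07. Bhlhe40, the close relative of Bhlhe41, differed by 0.21 ± 0.09 (edgeR adjusted p = 0.167).

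Against 3.12% of all genes called higher, 5 of 13 tested lipid-handling targets of PPARγ rose with age and none fell in the edgeR test. They were Pdk4, a mitochondrial kinase that limits glucose oxidation (2.46 ± 0.46), Cidec, a lipid droplet protein (1.69 ± 0.37), the fatty acid transporter Cd36 (0.67 ± 0.15), Fabp4 and the desaturase Scd1 (0.56 ± 0.16), and the median of the list was 0.26 on the log2 scale. Of 14 genes of recruited monocytes and immature macrophages, 4 fell and 2 rose, against 4.86% of all genes called in either direction. The chemokine receptors Ccr2 (-1.27 ± 0.19; edgeR adjusted p = 2.32e-04) and Cx3cr1 (-0.87 ± 0.14; edgeR adjusted p = 3.46e-04) fell, as did C1qa and Vcan. Plac8 rose by 2.68 ± 0.67 (edgeR adjusted p = 0.0191). Mean TMM-scaled Ccr2 was 266 CPM in the young and 105 CPM in the old macrophage libraries.

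**Figure D3:**
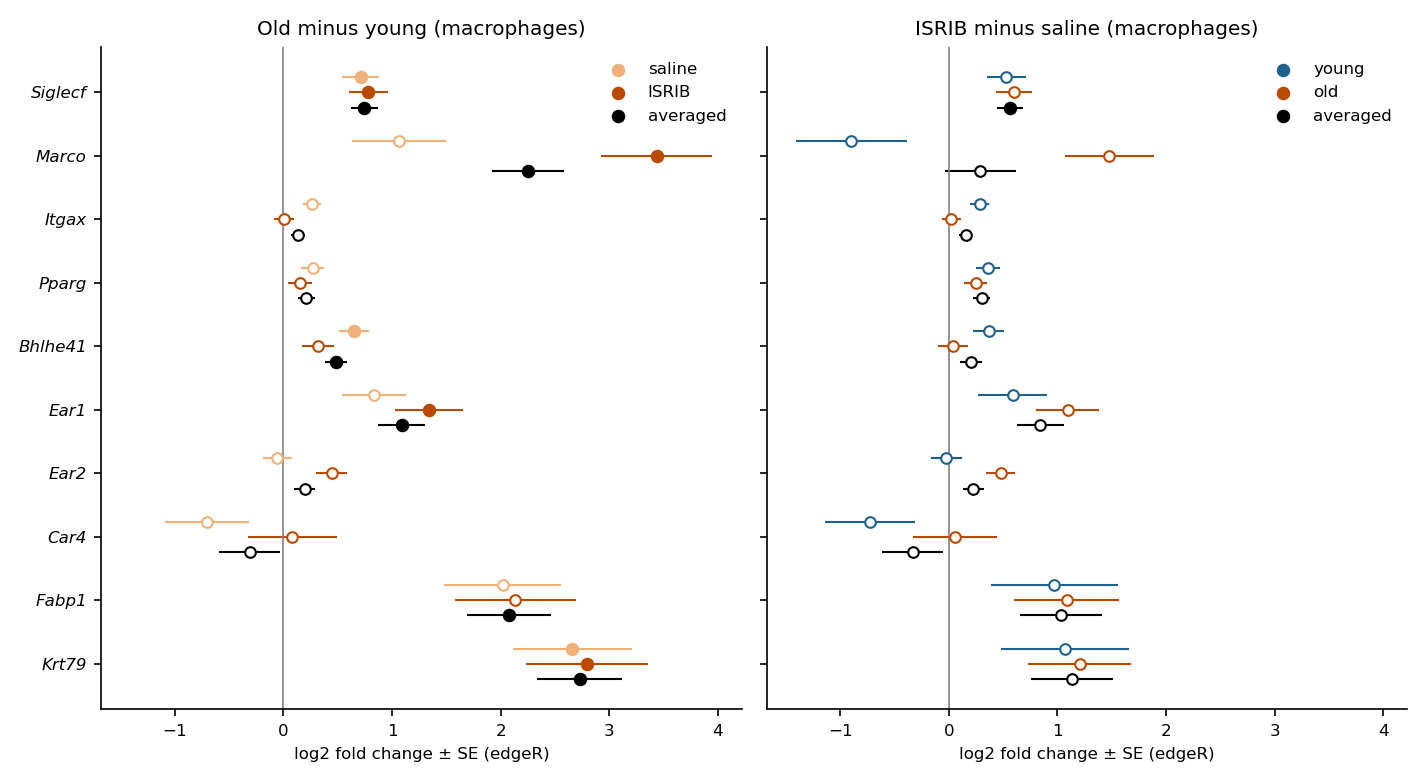
Log2 fold changes (horizontal axis) from edgeR for old against young macrophages (left) and ISRIB against saline (right), with standard errors computed from the test statistic. Filled points passed an adjusted p of 0.05, and white points did not. Krt79, Marco, Fabp1, Ear1, Siglecf and Bhlhe41 have filled averaged points on the left, and only Siglecf has one on the right.

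ISRIB was compared with saline at each age. Averaged over ages, Siglecf alone rose, by 0.57 ± 0.12 (log2; edgeR adjusted p = 0.0329), 1 of 10 members, where 0.452% of genes were called higher. Pparg (0.30 ± 0.08) and Ear1 (0.84 ± 0.21) had edgeR adjusted p = 0.0526 each, just over the threshold. Krt79 (1.14 ± 0.38), Fabp1 (1.03 ± 0.38), Ear2 (0.23 ± 0.10) and Itgax (0.15 ± 0.06) had unadjusted p under 0.05 only. In all, 7 members and 2019 genes had an unadjusted p under 0.05. Car4, at -0.33 ± 0.28, was the only member below 0; Marco, at 0.29, was at -0.03 without young ISRIB library 3. The call for Siglecf was kept in 10 of 19 fits that left out 1 library, with edgeR adjusted p from 0.00680 to 0.0890. Over those fits the number of members called ranged from 0 to 4, and 0.105% to 5.19% of genes were called.

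In old mice edgeR called 0 of 10 members with ISRIB, and 0% of the 12171 genes tested. An unadjusted p under 0.05 was found for 7 members and 1112 genes. DESeq2 called 2 members, Siglecf and Ear2, where it called 0.288% of genes. All 10 members had a fitted log2 change above 0, though that of Car4 (0.06 ± 0.39) was -0.45 without old ISRIB library 3 and -0.09 without old saline library 5. Bhlhe41 (0.04) and Itgax (0.02) also changed sign. Over the 10 fits that left out 1 library, they ran from -0.05 to 0.14 and from -0.03 to 0.08. The members had a median of 0.54 against 0.00016 over all genes, and no member had groups without overlap (1.24% of genes). Marco differed by 1.48 ± 0.41 (edgeR adjusted p = 0.248), Ear1 by 1.10 ± 0.29 (0.223), Siglecf by 0.60 ± 0.16 (0.238) and Ear2 by 0.48 ± 0.14 (0.265). Without old saline library 3, Siglecf and Ear1 passed (edgeR adjusted p = 0.0440 and 0.0458), where 0.248% of genes were called, and without both library 3 and library 5, 6 members did, where 4.16% of genes were called. Those libraries were chosen because several members were high in them, and leaving out high control libraries raises the difference by construction.

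In young mice edgeR likewise called 0 of 10 members with ISRIB, and 0% of genes; 4 members and 1513 genes had an unadjusted p under 0.05. After TMM scaling, Siglecf and Itgax did not overlap between young ISRIB and young saline libraries, against 3.98% of genes; in unscaled CPM only Siglecf did not. They had log2 differences of 0.53 ± 0.18 and 0.28 ± 0.09 (edgeR adjusted p = 0.209 and 0.187). Marco was below 0, at -0.90 ± 0.51, and ran from -1.54 without young ISRIB library 3 to -0.33 without young saline library 4. Car4 was also below 0, at -0.73 ± 0.42, and ran from -1.49 without young ISRIB library 3 to -0.47 without young ISRIB library 2. Without young ISRIB library 3, where 2.43% of genes were called, edgeR called Car4 (-1.49), Bhlhe41 (0.50) and Itgax (0.35), with adjusted p of 0.0389, 0.0496 and 0.0367.

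The difference of the ISRIB effects between the ages was tested itself, and edgeR called 0 of 10 members and 0% of genes, with 621 genes at an unadjusted p under 0.05. Marco had the largest value among the members, 2.38 ± 0.65 (unadjusted p = 0.00129; edgeR adjusted p = 0.765), with Ear2 at 0.50 ± 0.20 and Itgax at -0.26 ± 0.12. DESeq2 and limma voom also called 0 members. Comparisons of age within a treatment and of ISRIB within an age share libraries, so their values are set side by side and not counted as separate evidence.

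With ISRIB averaged over ages, edgeR called 0.830% of the 12171 genes tested in either direction and 0.452% higher. Of the wider genes, it called 3 of 21 alveolar macrophage genes higher. These were Atp6v0d2, a subunit of the lysosomal proton pump (0.34 ± 0.06), Mrc1 (0.35 ± 0.08) and Nceh1, a cholesterol ester hydrolase (0.28 ± 0.06). Their edgeR adjusted p were 0.0102, 0.0341 and 0.0365. Among the upstream genes Tgfbr2, a TGF-β receptor subunit, rose by 0.29 ± 0.07 and Tgfb1 fell by 0.20 ± 0.05 (edgeR adjusted p = 0.0429 each). Cd36 was the 1 PPARγ target called, at 0.76 ± 0.15 (edgeR adjusted p = 0.0179). None of the 14 recruited monocyte genes passed the edgeR test. An unadjusted p under 0.05 was found for 6 of the 14 and for 2019 of the 12171 genes. DESeq2 called 1 of the 14, where it called 3.45% of genes, and limma voom 0, where it called 1.39%. Ccr2 differed by -0.51 ± 0.19 (edgeR adjusted p = 0.169). Fabp4, Chil3 and Plet1 differed by 0.26 ± 0.14, 0.42 ± 0.15 and 0.11 ± 0.09 and did not pass.

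In monocytes 4 members had enough counts to be tested, Ear2, Itgax, Pparg and Siglecf; the other 6 fell below the filter on low counts of that fit and were not tested in it. With age edgeR called 0 of these 4, against 0.123% of 12170 genes, and with ISRIB 0 of 4 and 0% of genes. At an unadjusted p under 0.05 there were 0 members and 1003 genes with age, and 1 member and 911 genes with ISRIB. That member was Itgax (0.70 ± 0.31; edgeR adjusted p = 0.639), which ranged from 8.49 to 119 CPM over the 20 monocyte libraries. The fit to all 39 libraries, in which the filter kept all 10 members, called Bhlhe41 higher with age in monocytes (3.38 on the log2 scale; edgeR adjusted p = 0.00750), where 0.324% of genes were called. Its level was low throughout, at 0 to 0.218 CPM in young and 0 to 1.29 CPM in old monocytes, and the ranges overlapped. The dendritic cell list summed to 31.5 to 238 CPM in the monocytes, and Flt3, one of its genes, to 16.7 to 130.1 CPM; their part in the spread of Itgax was not tested.

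After the mean of each group was subtracted, the members did not move as 1 block among the 19 macrophage libraries. Siglecf went with Ear1 (Pearson r = 0.860, permutation p = 0.00229, adjusted over 9 relations 0.0206; Spearman rho = 0.781, permutation p = 0.00364, adjusted 0.0176). For Ear2 r was 0.591 (permutation p = 0.0147, adjusted 0.0629) and rho 0.711 (permutation p = 0.00391, adjusted 0.0176), and for Krt79 r was 0.736 (permutation p = 0.0210, adjusted 0.0629) and rho 0.625 (permutation p = 0.0321, adjusted 0.0964). Without the 2 libraries farthest from the median of Siglecf, r was 0.848 for Ear1, with an adjusted permutation p of 0.0643, so that no relation stayed under 0.05. Without old saline libraries 3 and 5, r was 0.727 for Ear1 (adjusted permutation p = 0.140) and 0.364 for Krt79. Pooled correlations among the members are not given, because the groups differ in level.

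**Figure D4:**
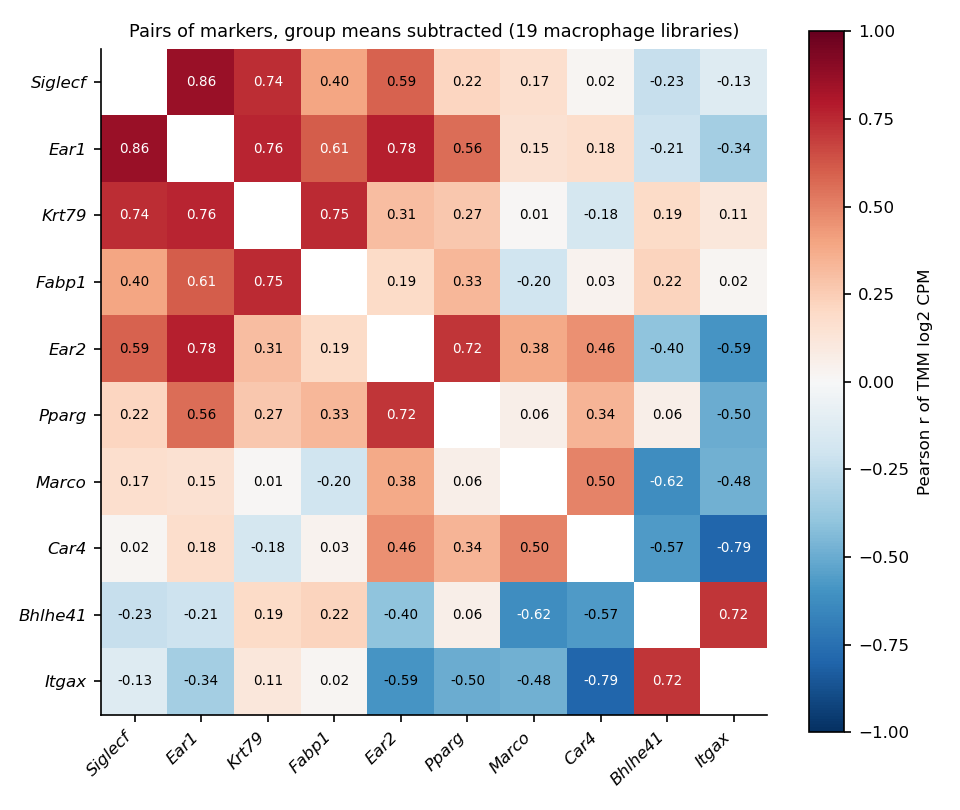
Pearson r of TMM-scaled log2 CPM for the 45 pairs of markers over 19 macrophage libraries after each group's mean was subtracted; red is positive and blue negative. Siglecf, Ear1, Krt79 and Fabp1 form a red corner, and Car4 is negative with Itgax and Bhlhe41.

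Among the 45 pairs, described without a test, the highest r were 0.860 for Siglecf with Ear1, 0.780 for Ear1 with Ear2, which share sequence, 0.762 for Ear1 with Krt79 and 0.747 for Fabp1 with Krt79. Itgax and Bhlhe41 went together at 0.717. The lowest were -0.791 for Car4 with Itgax, -0.618 for Marco with Bhlhe41 and -0.590 for Ear2 with Itgax. Marco, which had one of the largest age differences, was near 0 with Siglecf (0.169) and with Krt79 (0.014). The points share library depth and TMM scaling.

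Over the same libraries without subtraction of group means, the 5 other genes most like Marco by Spearman rho, among 9614 with a mean of at least 5 CPM, were Bmpr1a (0.891), Eif2d (0.858), Tigar (0.847), Ide (0.814) and Gpbp1l1 (0.807). Differences between the groups enter these values; after group means were subtracted rho was 0.467, 0.672, 0.677, 0.254 and 0.621 in the same order. For Siglecf they were Ccl6 (0.925), Ccnd2 (0.900), Lmo4 (0.898), E230016K23Rik (0.895) and the immunoglobulin light chain segment Igkv3-2 (0.890), and after subtraction 0.828, 0.847, 0.702, 0.761 and 0.622.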

How the data were processed

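Gene counts of 39 libraries were used as deposited by the authors. The submitters' processing notes name bcl2fastq 2.19.1, FastQC, Trimmomatic 0.36, STAR 2.6.0, HTSeq 0.11.2 and mm10; the sources used here do not give the annotation, the strand setting or the treatment of multi-mapped reads. Per the labels' protocols, libraries were made from poly(A) RNA with a NEBNext Ultra kit. Symbols were matched for 42462 of 43430 rows; gene lengths came from GENCODE vM21 on GRCm38. CPM divides counts by the library total and RPKM also by exon length. Macrophages (19 libraries), monocytes (20) and all 39 were fitted separately with edgeR 4.0.16 (TMM, filterByExpr with a minimum count of 10, quasi-likelihood test, Benjamini-Hochberg over all genes tested, threshold 0.05). Standard errors, given after ±, were computed as the absolute log2 change divided by the square root of the test's F statistic. DESeq2 1.42.0 and limma 3.58.1 (voom), no filter, DESeq2 size factors, joint or 2-group fits, a replicate block and leaving out libraries were alternatives. On simulated macrophage counts for the averaged age comparison (11756 genes), edgeR recovered 90 of 100 genes changed by 1 and 98 of 100 changed by 2 on the log2 scale. The simulation gave every gene the same dispersion, so this recovery does not carry over to members with a wider spread between libraries. Correlations used 100000 permutations, within groups, two-sided, in Python (numpy 2.4.6, scipy 1.17.1). The members and lists were chosen with earlier results of these data known. All members were named; of each wider list, up to 6 genes called in each of the averaged age and ISRIB comparisons were named (smallest adjusted p first), plus Ccr2, Csf2ra, Csf2rb, Fabp4, Chil3, Plet1, Mrc1, Bhlhe40, Ear6 and Ear10, and the 5 genes nearest to Marco and to Siglecf; F7 was named after its values were seen. One gene that counts in the list of recruited monocytes and immature macrophages is not reported here by name.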

Additional observations from a re-analysis of the deposited data

Results flagged for a closer look

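One value stood far from the rest of its group. Marco in young saline macrophage library 4 was at 36.1 CPM, against 14.3 CPM in the next highest library, a gap of 0.735 of the group's range where Dixon's 95% critical value is 0.71. Groups of 4 or 5 libraries were examined for the members 40 times, and chance flags about 1 in 20 such groups. That library was the highest of its group for 4 members, Marco, Siglecf, Car4 and Ear2, and the lowest for 4, Fabp1, Krt79, Itgax and Bhlhe41.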

How the results depend on the processing

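The number of members called with age averaged over treatments was 6 in every alternative and whenever 1 library was left out. Over those fits 2.44% to 6.73% of genes were called. The macrophage against monocyte counts changed only by Fabp1 falling below the filter when the 2 young groups were fitted alone. The smaller counts depended on the analysis. Without a filter on low counts, edgeR called 5 members for ISRIB in old macrophages (0.968% of genes), 3 in young (0.986%), 5 averaged over ages (2.82%), 7 for age with saline (2.06%) and 1 for the difference of the ISRIB effects (0.145%). The 3 in young and the 7 with saline each include Car4 called lower, at -0.73 and -0.70 on the log2 scale. DESeq2 called 2 for ISRIB in old macrophages (0.288% of genes) and 3 averaged over ages (3.45%). limma voom called 2 for ISRIB averaged over ages (1.39% of genes), 1 for age with saline (0.846%) and 2 for age with ISRIB (0.666%). Fitting all 39 libraries together gave 0 (0.125% of genes), 1 (0.442%) and 2 (0.368%) for the same comparisons, and 1 (0.324%) for age in monocytes. Old saline macrophage libraries 3 and 5 were left out in an alternative added after seeing the data. The counts were then 6 for ISRIB in old macrophages (4.16% of genes), 5 for ISRIB averaged over ages (8.93%), 0 for age with saline (0.227%) and 0 relations with Siglecf. Leaving out 1 library gave 0 to 2 members for ISRIB in old macrophages (0% to 0.248% of genes) and 0 to 3 in young (0% to 2.43%). It gave 0 to 4 averaged over ages (0.105% to 5.19%), 0 to 4 for age with saline (0.389% to 2.39%) and 1 to 5 for age with ISRIB (0.264% to 1.30%). The main relations with Siglecf under 0.05 by Pearson's r numbered 1; there were 2 without TMM scaling and 0 without the 2 farthest libraries. Same-numbered libraries were not treated as pairs in the main fits. The median correlation of their deviations was 0.0038 in macrophages and 2 of 27 pairs exceeded 0.1. Among the 19 macrophage libraries, 7 correlated best with a library of their own number. These values cannot show whether same-numbered libraries were prepared together. With the replicate block, 5 members were called for ISRIB averaged over ages (2.82% of genes) and 4 for age with saline (1.48%). The causes were not tested. Few counts were available for Fabp1 in the young groups and for the 6 members below the filter in monocytes, and absence of a call there does not show absence of a difference.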
